A study of Mus musculus with 7 samples.

Results

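The genes described here are those of the mouse major histocompatibility complex (MHC) and of antigen presentation. They were taken as every array probe whose platform gene symbol starts with H2-, or is Tap1, Tap2, Tapbp, B2m, Cd74, Ciita, Nlrc5, Erap1, Cd1d1 or Mr1. This gave 86 probes of 49 genes, out of 45281 probes and 19057 named genes on the array, and 29 of the 49 genes were tested because a probe of theirs lay above a background floor on at least 3 of the 7 arrays (a kept probe). Whole liver of C57BL/6 mice was measured 12 h after partial hepatectomy (PHx), the removal of part of the liver, in 4 LTBR KO samples and 3 WT samples. All samples of both groups had undergone PHx, so the comparison is of genotypes within regenerating liver and holds no unoperated liver. The labels give neither age, sex nor the construction of the KO allele. Nor do they state that the samples were different animals, and the p-values below therefore cover only sample-to-sample spread, part of which may be technical. Ltbr encodes the lymphotoxin beta receptor, a receptor of the tumor necrosis factor family.

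MHC class I molecules pair a heavy chain with beta-2-microglobulin (B2m) and display peptides made in the cytosol to CD8 T cells on nearly all nucleated cells. The peptides are cut by the proteasome, pumped into the endoplasmic reticulum by Tap1 and Tap2, trimmed by Erap1 and loaded with the help of Tapbp (tapasin), and Nlrc5 drives transcription of these genes. MHC class II molecules display peptides from endosomes to CD4 T cells, mainly on dendritic cells, B cells and macrophages. Cd74, the invariant chain, escorts them, H2-DM exchanges their peptide, and Ciita drives their transcription. The C57BL/6 strain makes no functional E alpha chain.

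The probe of Ltbr, the targeted gene, read 6.63, 7.04 and 7.28 in the WT samples and 5.86, 6.23, 6.08 and 5.61 in the KO samples, as log2 of background-corrected intensity. Every KO sample lay below every WT sample, with a KO minus WT difference of -1.04 (SE 0.20, adjusted p = 0.0878 by limma with Benjamini-Hochberg adjustment). Whether this probe lies in the altered part of the gene is not given, so it checks the labels only in part. Over the whole array 9 of 13193 genes or unnamed probes passed an adjusted p under 0.05, which is 0.0682%, with 1 higher and 8 lower in KO. The median difference of all of them was 0.03 and the median SE 0.19. All 7 hepatocyte markers were bright enough to be tested, and Tat alone dipped below the floor, on 1 array (WT replicate 3). Samples of the same group correlated at 0.967 to 0.987 over the tested genes, and samples of different groups at 0.960 to 0.977.

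The start regions of 3 class II and 2 class I genes are shown because they carry the short elements by which each class is known to be transcribed together. A further reason was that H2-DMb1 spread less among the WT samples than H2-Aa and H2-Eb1, as described below. H2-DMb1 read close to the floor, however, and its WT samples had the same order as in H2-Aa and H2-Eb1. Each run is the 250 bases before the gene's start in RefSeq on GRCm38.p6, written 5′ to 3′ on the gene's strand, with the matched elements in capitals.
H2-Aa, chr17:34287824-34288073, strand -: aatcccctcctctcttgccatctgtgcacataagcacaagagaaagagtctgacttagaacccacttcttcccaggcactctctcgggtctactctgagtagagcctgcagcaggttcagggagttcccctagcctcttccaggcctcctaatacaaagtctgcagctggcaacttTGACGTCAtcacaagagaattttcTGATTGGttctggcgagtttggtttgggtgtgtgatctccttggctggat
H2-Eb1, chr17:34305617-34305866, strand +: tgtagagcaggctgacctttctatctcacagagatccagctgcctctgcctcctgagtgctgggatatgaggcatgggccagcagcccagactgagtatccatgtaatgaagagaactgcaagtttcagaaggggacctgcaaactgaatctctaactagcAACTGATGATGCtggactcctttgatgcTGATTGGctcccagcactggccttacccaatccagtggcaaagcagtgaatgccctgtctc
H2-DMb1, chr17:34152941-34153190, strand +: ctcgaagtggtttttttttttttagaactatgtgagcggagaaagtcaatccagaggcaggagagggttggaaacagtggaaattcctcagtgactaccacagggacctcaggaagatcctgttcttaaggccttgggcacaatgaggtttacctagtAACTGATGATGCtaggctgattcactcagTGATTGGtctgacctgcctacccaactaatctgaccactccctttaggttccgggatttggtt
H2-K1, chr17:34000348-34000597, strand -: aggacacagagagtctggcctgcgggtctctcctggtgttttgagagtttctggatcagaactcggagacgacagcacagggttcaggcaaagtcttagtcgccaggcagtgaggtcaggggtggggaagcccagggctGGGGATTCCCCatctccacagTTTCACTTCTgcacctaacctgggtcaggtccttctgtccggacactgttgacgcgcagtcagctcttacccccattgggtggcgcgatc
H2-D1, chr17:35262844-35263093, strand +: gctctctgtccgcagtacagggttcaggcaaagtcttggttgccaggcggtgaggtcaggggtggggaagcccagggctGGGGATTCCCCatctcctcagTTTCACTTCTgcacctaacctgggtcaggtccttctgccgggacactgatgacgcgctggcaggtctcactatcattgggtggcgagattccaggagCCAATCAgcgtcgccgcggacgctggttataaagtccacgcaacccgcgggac

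The elements were chosen after reading these regions, were copied from H2-Aa, H2-Eb1 and H2-K1, which therefore hold them by construction, and were searched on both strands. Of the 49 genes 35 had a start region in the table. TGATTGG, the inverted CCAAT of the Y box that NF-Y binds, is written as CCAATCA in H2-D1, where it lies on the other strand. It was found in 7 of the 8 class II genes with a start region (87.5%), in 13 of 22 class I genes (59.1%) and in 2067 of all 27025 start regions (7.65%). AACTGATGATGC, a stretch of the X box, was found in H2-Eb1 and H2-DMb1 and in no other of the 27025 regions (0.0074%). H2-Aa had no exact match to that stretch, which does not show that it lacks an X box. It held TGACGTCA, the cAMP response element, which 1.62% of all regions hold. GGGGATTCCCC, a palindromic NF-kB site, was found in H2-K1, H2-D1 and H2-Q6 (13.6% of class I, 0.0222% of all), and TTTCACTTCT, an interferon response sequence, in 6 class I genes (27.3%, against 0.137% of all). In H2-K1 and H2-D1 these elements follow each other in the same order. A match describes letters and is not evidence of binding in these livers.

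None of the 29 tested genes of the set passed the adjusted threshold (limma), and the lowest adjusted p was 0.24, for H2-Q8. At an unadjusted p under 0.05, 1 gene was higher in KO (H2-DMb1) and 1 lower (H2-Q8), against 8.25% of all genes higher and 6.52% lower. The values of the groups did not overlap in 1 gene, H2-DMb1, which was higher in KO, against 7.62% of all genes apart in that direction. By its brightest probe, no gene of the set was apart in the lower direction, against 5.48% of all genes. None of these counts was above its background share. The 15 class I genes had a median difference of 0.00, with 8 above 0 and 7 below, and the 6 class II genes had a median of 0.13, with 4 above and 2 below. That class II median was -0.24 without WT replicate 3 and 0.49 without WT replicate 1.

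**Figure D1:**
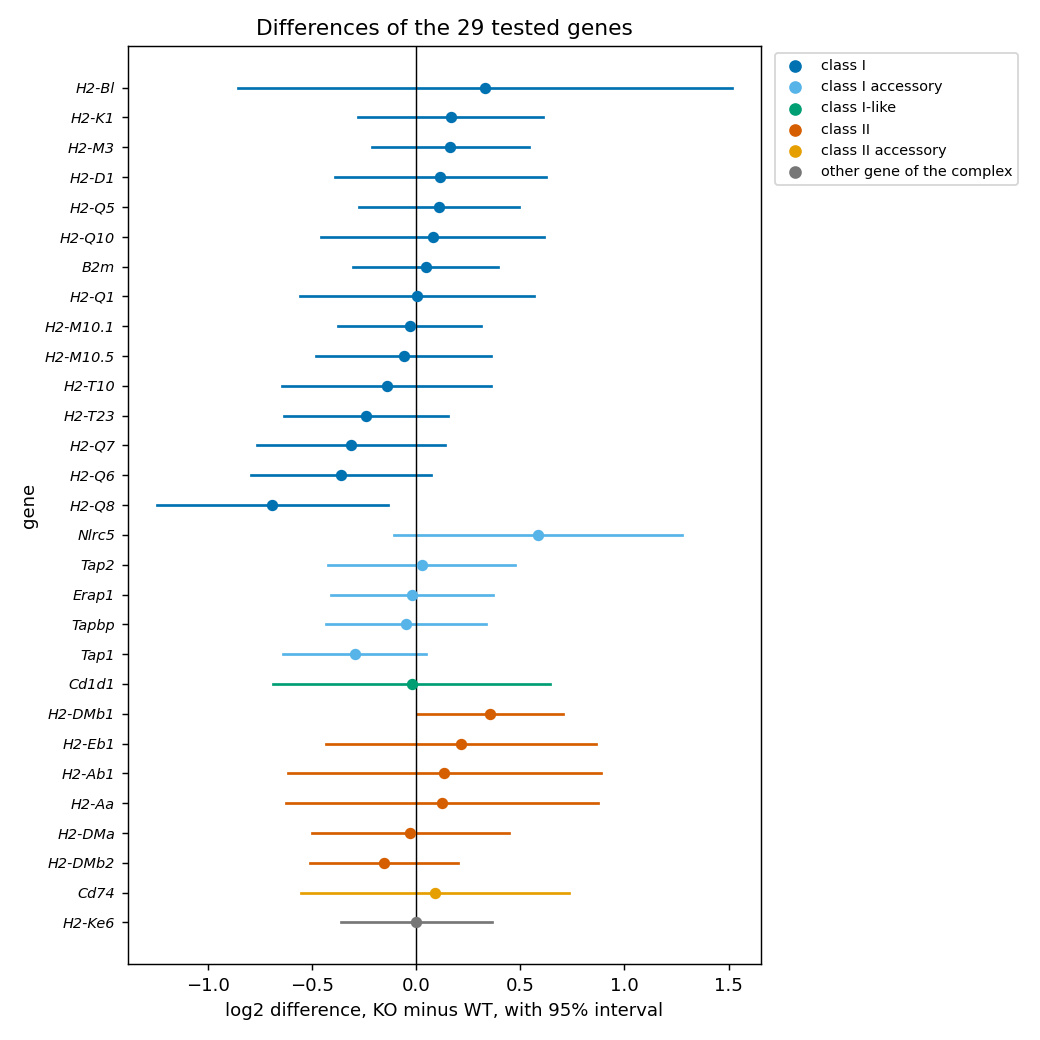
KO minus WT difference (log2 of corrected intensity) of each tested gene, by class, with its interval. The class I genes lie on both sides of 0, H2-Q8 lies lowest at -0.69, Nlrc5 highest at 0.58, and the intervals of H2-Q8 and H2-DMb1 alone leave out 0.

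The class I light chain and the classical heavy chains were close between genotypes. B2m read 13.74, 13.63 and 13.36 in WT against 13.52, 13.70, 13.74 and 13.54 in KO, a difference of 0.04 (SE 0.16, 95% interval -0.30 to 0.39, limma adjusted p = 0.933). H2-K1, a classical heavy chain that presents to CD8 T cells, read 10.82, 10.94 and 10.11 in WT against 10.81, 10.89, 10.74 and 10.72 in KO. WT replicate 3 stood below all other samples, and the KO samples spanned only 1.13-fold. The difference was 0.16 (SE 0.20, interval -0.28 to 0.61). H2-D1, the other classical heavy chain of this strain, read 10.98, 11.00 and 11.38 in WT against 11.39, 11.37, 10.60 and 11.58 in KO. Here KO replicate 3 was the low sample, and the difference was 0.12 (SE 0.23, interval -0.39 to 0.62). The intervals leave room for changes of either sign in all 3 genes.

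**Figure D2:**
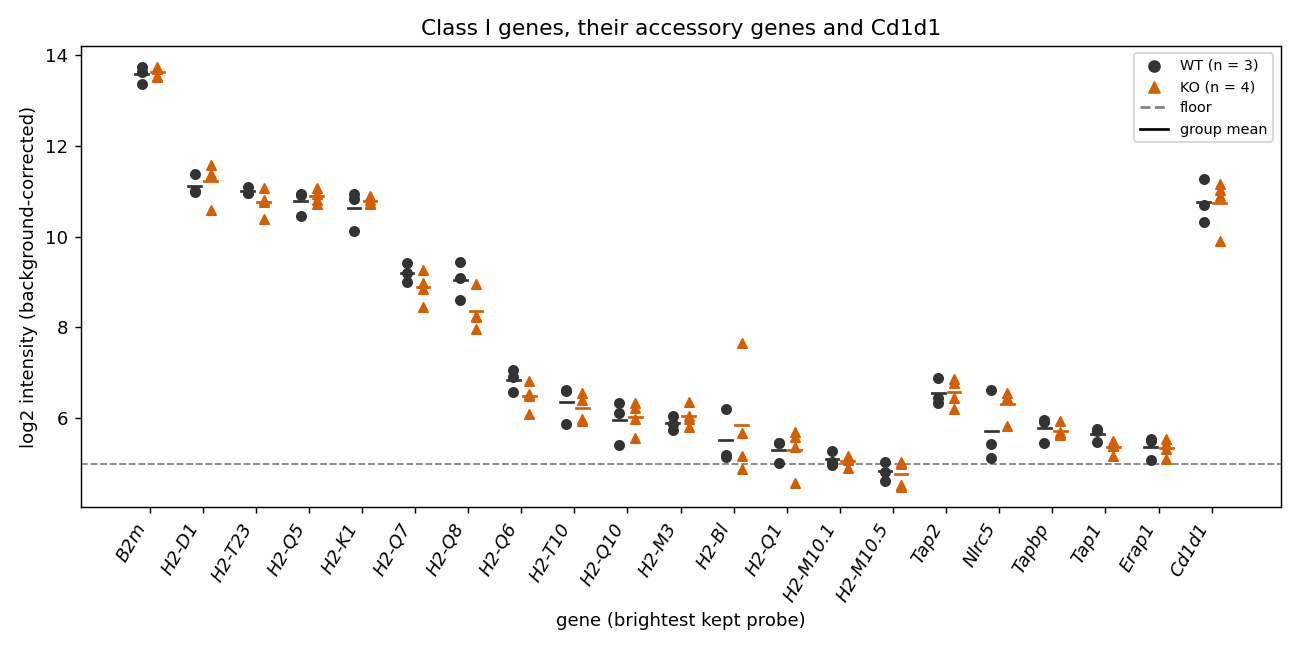
Log2 of corrected intensity of the class I genes, their accessory genes and Cd1d1 in each sample, WT and KO. The groups overlap in every gene shown, and H2-Bl spreads most, with KO replicate 2 at 7.65. Levels of different genes come from different probes and are not comparable.

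The genes of the Q region encode nonclassical class I molecules, and 6 of 7 were tested, with a median of -0.16. H2-Q8 read 8.61, 9.09 and 9.44 in WT against 8.23, 8.25, 7.97 and 8.96 in KO. KO replicate 4 lay inside the WT range and the other 3 KO samples below it. The difference was -0.69 (SE 0.25, interval -1.25 to -0.14, unadjusted p = 0.019, limma adjusted p = 0.24). A second H2-Q8 probe gave -0.23 and overlapping groups. H2-Q7, whose protein in this strain is the membrane-anchored Qa-2, averaged 9.20 ± 0.21 in the WT samples (SD, n = 3) and 8.89 ± 0.35 in the KO samples (SD, n = 4), where KO replicate 3 was lowest at 8.44. Its difference was -0.31 (SE 0.21, interval -0.76 to 0.14) on this probe and 0.20 on its other kept probe. H2-Q6 differed by -0.36 (SE 0.20), and H2-Q5 (annotated by RefSeq as a pseudogene), H2-Q10 and H2-Q1 by 0.11, 0.08 and 0.00. H2-Q10, a secreted class I molecule made by liver, read 5.41 to 6.32 in WT against 5.57 to 6.32 in KO. These genes are close copies of one another, and a probe may collect signal from several.

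In the T region, 3 of 7 genes were tested. H2-T23, which encodes Qa-1, the ligand of the NKG2A receptor of NK cells, read 10.96, 11.09 and 10.95 in WT against 10.76, 11.08, 10.39 and 10.81 in KO. The WT samples were tight, at a 1.10-fold range, and KO replicate 2 fell among them, leaving a difference of -0.24 (SE 0.18, interval -0.64 to 0.15). H2-T10, a pseudogene in the RefSeq annotation, differed by -0.14. H2-Bl, also a pseudogene there, read 5.18, 5.13 and 6.21 in WT against 5.68, 7.65, 4.88 and 5.15 in KO. KO replicate 2 alone made its 6.84-fold KO range, and the difference of 0.33 had an SE of 0.54. Of 12 M region genes 3 were tested, and H2-M3, which presents formylated peptides, differed by 0.16 (SE 0.17), H2-M10.1 by -0.03 and H2-M10.5 by -0.06.

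Of the class I accessory genes all 5 were tested, with a median of -0.02. Nlrc5 read 5.12, 5.43 and 6.62 in WT against 6.42, 6.45, 5.82 and 6.55 in KO. WT replicate 3 was the highest of all samples and the other 2 WT samples the lowest, so the difference of 0.58 (SE 0.32, interval -0.11 to 1.28, limma adjusted p = 0.428) rests on which WT sample is counted. Without both WT replicate 3 and KO replicate 3, its highest WT and its lowest KO sample, it was 1.20 (adjusted p = 0.0104). That setting called 568 of all 13193 genes or unnamed probes, and Nlrc5 was the 1 member among them. Without WT replicate 3 alone the difference was 1.03 (adjusted p = 0.0908). Tap1, a chain of the peptide transporter, read 5.72, 5.48 and 5.76 in WT against 5.38, 5.49, 5.17 and 5.38 in KO, a difference of -0.30 (SE 0.16, adjusted p = 0.416). KO replicate 2 overlapped WT replicate 2. Its partner Tap2 differed by 0.02 (SE 0.21) and Erap1 by -0.02 (SE 0.18). Tapbp differed by -0.05 on its brightest probe and by -0.58 on the other (SE 0.23, unadjusted p = 0.0251), where every KO sample lay below every WT sample.

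Cd1d1, the class I-like molecule that presents lipids to NKT cells, read 10.70, 10.33 and 11.28 in WT against 11.03, 11.17, 9.91 and 10.89 in KO. The samples spread widely in both groups, and the difference was -0.02 (SE 0.30, interval -0.69 to 0.64). It turned to 0.26 without KO replicate 3, its lowest KO sample, and to 0.23 without WT replicate 3, its highest WT sample. Leaving out both raises the difference by construction, and it was then 0.51 (unadjusted p = 0.0199, limma adjusted p = 0.145). In that setting 2865 of all 13193 genes or unnamed probes had an unadjusted p under 0.05. Mr1, which presents microbial metabolites to MAIT cells, was above the floor on 1 array at most and was not tested.

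The class II A and E chains and Cd74 varied more among the WT samples, by 1.43 to 1.88, than they differed between genotypes, by 0.09 to 0.22. H2-Aa, the A alpha chain, read 9.28, 8.53 and 7.40 in WT against 8.34, 8.84, 8.38 and 8.55 in KO. WT replicate 1 was the highest of the 7 samples and WT replicate 3 the lowest, 3.67-fold apart, while the KO samples lay between them within 1.41-fold. The difference was 0.12 (SE 0.34, interval -0.63 to 0.87, limma adjusted p = 0.908). H2-Ab1, its partner chain, read 9.85, 8.98 and 7.99 in WT against 8.70, 9.22, 9.05 and 9.32 in KO, a difference of 0.13 (SE 0.34). H2-Eb1, the E beta chain, read 8.07, 7.09 and 6.64 in WT against 7.19, 7.78, 7.25 and 7.71 in KO, a difference of 0.22 (SE 0.30). Cd74 read 9.58, 9.14 and 8.14 in WT against 8.88, 9.17, 8.74 and 9.39 in KO, a difference of 0.09 (SE 0.29). In all 4 genes WT replicate 1 was highest, WT replicate 3 lowest and every KO sample in between. Their WT ranges lay at the 98.4 to 99.5 percentile of the WT ranges of all tested genes.

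**Figure D3:**
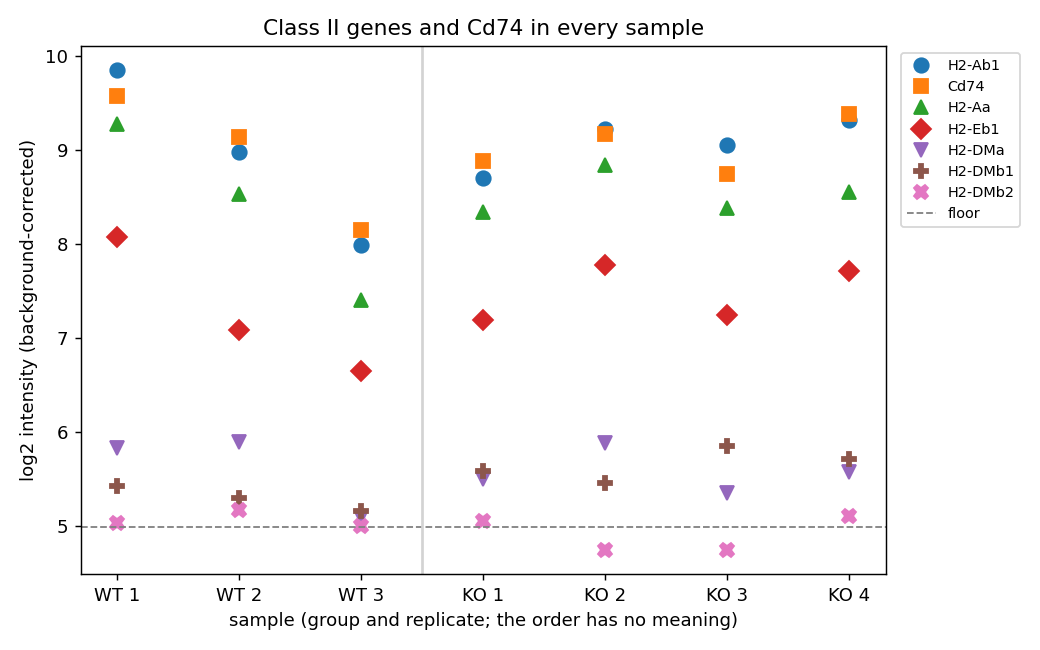
Log2 of corrected intensity of the tested class II genes and Cd74 in each sample. H2-Aa, H2-Ab1, H2-Eb1 and Cd74 are highest in WT replicate 1 and lowest in WT replicate 3, with the KO samples between.

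The peptide exchange genes had narrower WT ranges, of 0.16 to 0.80. They read close to the floor of 4.99, so these ranges cannot be set against those of the brighter A and E genes. H2-DMb1, a beta chain of H2-DM, read 5.42, 5.30 and 5.16 in WT against 5.58, 5.46, 5.85 and 5.71 in KO. The groups did not overlap, though the highest WT sample and the lowest KO sample lay close together, and the difference was 0.35 (SE 0.16, interval 0.00 to 0.71, unadjusted p = 0.0484, limma adjusted p = 0.333). H2-DMa, the alpha chain, read 5.82, 5.89 and 5.09 in WT against 5.50, 5.88, 5.35 and 5.57 in KO, a difference of -0.03 (SE 0.22). H2-DMb2, the other beta chain gene, differed by -0.16 (SE 0.16). H2-Oa and H2-Ob, which restrain H2-DM, H2-Eb2 and Ciita were not above the floor on 3 arrays, and Ciita was above it on 0. H2-Ea, annotated as a pseudogene in this strain's reference, was above it on 2. H2-Ke6, an enzyme gene inside the complex that presents nothing, differed by 0.00 (SE 0.17).

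Markers of cells that carry class II were compared over the same samples, as the mean deviation of each list from its genes' means. For H2-Aa, H2-Ab1, H2-Eb1 and Cd74 together this score was 0.72, -0.04 and -0.93 in WT against -0.19, 0.28, -0.12 and 0.27 in KO. B cell markers, 3 of 7 tested, scored 0.00, 0.11 and -0.35 in WT against -0.05 to 0.19 in KO. Dendritic cell markers, 3 of 8 tested, scored 0.23, 0.29 and -0.10 in WT against -0.28 to 0.17 in KO. WT replicate 3 was the lowest WT sample in all 3 scores. Its B cell values all lay below the floor, at 4.62 for Cd79b, 4.985 for Cd22 and 4.24 for Fcrla. Among the dendritic cell markers it was the lowest WT sample only in Siglech (5.30, the other WT samples 6.33 and 6.30), and not in Zbtb46 or Clec10a. WT replicate 3 was also the lowest WT sample for the other marker lists, at -0.21 for hepatocytes (the other WT samples 0.23 and 0.25), -0.24 for sinusoidal endothelium (0.27 and 0.07) and -0.05 for T and NK cells (0.31 and 0.13). The members of these lists did not all go that way. Alb read 7.76, 7.70 and 5.92 in WT, and Tat was below the floor in WT replicate 3, at 4.92. Apoa1, Stab2 and Cd8b1 were highest of the WT samples there (14.74, 7.86 and 9.71), and Cps1, Hnf4a, Clec4g and Cd3e were not lowest. Kupffer cell and macrophage markers, 10 of 11 tested, scored -0.05, -0.31 and -0.51 in WT against 0.05, 0.11, 0.03 and 0.68 in KO, with all KO samples above all WT samples. Of its 10 genes 9 were above 0, against 7162 of all 13193. By limma 0 were called, with 3 higher at an unadjusted p under 0.05, against 8.25% of all genes. Marco and Cd163 passed with array weights (adjusted p = 0.0148 and adjusted p = 0.0306), a setting that called 955 of all 13193. Marco also passed without both replicates numbered 3 (adjusted p = 0.0221), where 568 of 13193 were called. Summed corrected intensities ran from 75.1 to 102.0 in WT and 91.5 to 108.9 in KO for B cells, 112.4 to 158.1 and 100.3 to 143.4 for dendritic cells, and 1835 to 2448 and 2521 to 4153 for Kupffer cells. Of the defining markers, Itgax, Xcr1 and Blk were above the floor on 0 arrays, Flt3, Ccr7 and Ms4a1 on 1 at most and Clec9a on 2. The part of these cells in the class II spread was not tested, and in whole liver fewer cells of a type and less RNA per cell cannot be told apart.

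**Figure D4:**
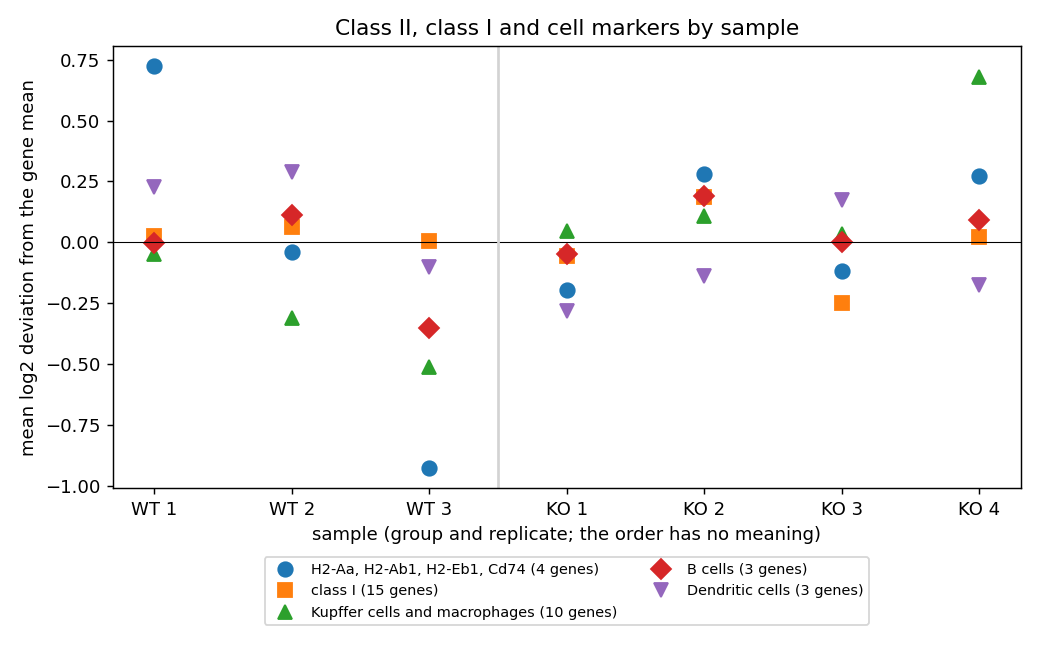
Mean log2 deviation from each gene's mean, by sample, for the class II A and E genes with Cd74, the class I genes and 3 marker lists. The class II score runs from 0.72 to -0.93 within WT, and the Kupffer score is higher in every KO than in every WT sample.

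The class I score, over 15 genes, spread less among the WT samples. It was 0.03, 0.06 and 0.01 in WT against -0.05, 0.19, -0.25 and 0.02 in KO. WT replicate 3 was lowest in 5 of 6 class II genes and in 5 of 15 class I genes, and KO replicate 3 was lowest in 6 of 15 class I genes and in 0 of 6 class II genes. The summed class I intensity, in which B2m alone makes up 10545 to 13707 of the WT sums, was 22947, 22520 and 19394 in WT, with WT replicate 3 lowest of all samples as in class II, and 20904 to 23740 in KO. The within-group SD of the score, pooled over both genotypes, was 0.14 for class I and 0.35 for class II. In KO alone the order was the other way. The class II score, over 6 genes, ran there from -0.10 to 0.17 and the class I score from -0.25 to 0.19. The scores average different numbers of genes, which also affects their spread.

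Kept probes of the same gene did not always share a sign. Of the 13 genes with several kept probes, 6 had probes of both signs, namely H2-Ab1, H2-D1, H2-K1, H2-Q5, H2-Q7 and H2-T10. In H2-Ab1, H2-D1, H2-K1 and H2-Q5 each probe's difference was smaller than its SE. Opposite signs in those genes do not show that the probes differ. In H2-T23, H2-Q6, H2-Q8, H2-DMa and Tapbp all kept probes lay below 0, and in B2m and Cd74 all lay above. The 3 probes of Cd74 gave 0.08 to 0.19 and the 3 of H2-T23 gave -0.24 to -0.09.

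**Figure D5:**
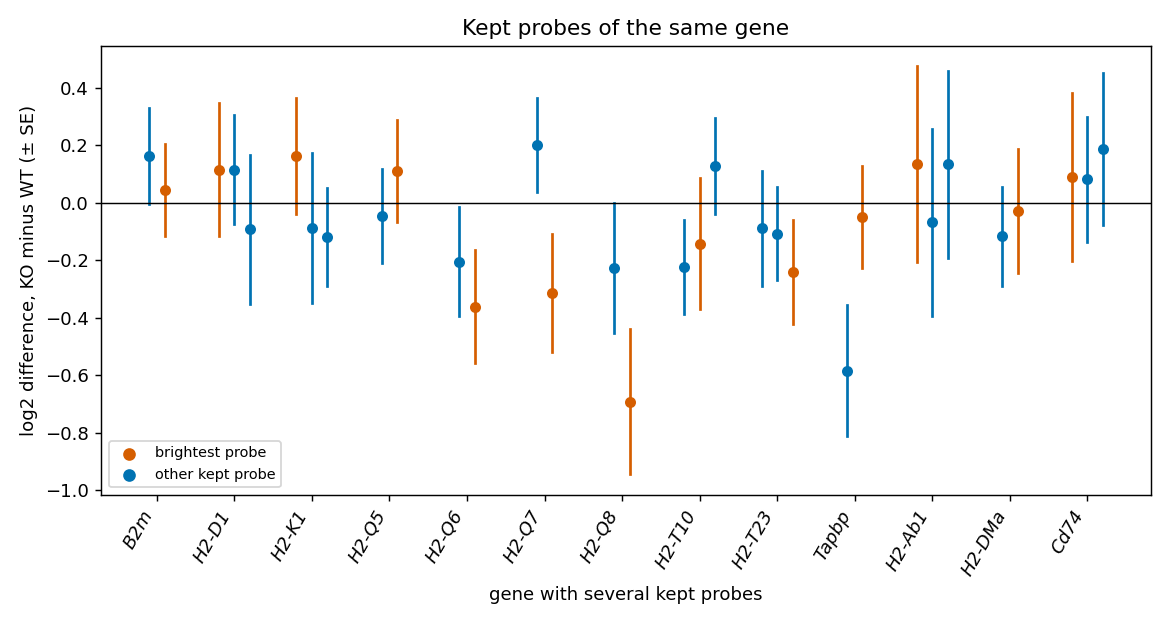
KO minus WT difference (log2, ± SE) of every kept probe of the 13 genes with several, the brightest in orange. Probes of H2-Q7 lie on opposite sides of 0, at -0.31 and 0.20, and those of H2-Q8 at -0.69 and -0.23.

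No gene that makes or loads class I peptides passed the threshold. In the immunoproteasome and its activators 5 of 6 tested genes were below 0 (median -0.21), with 0 called by limma. Of all 13193 genes or unnamed probes 6031 were below 0, and 5.48% had groups apart in the lower direction. Psme3, the nuclear proteasome activator, read 9.15, 9.74 and 9.64 in WT against 9.05, 8.72, 9.13 and 8.89 in KO, without overlap. The difference was -0.56 (SE 0.19, adjusted p = 0.201). The inducible subunits Psmb8 and Psmb10 differed by -0.24 and -0.31, and Psmb9, also inducible, by 0.02. A second kept probe gave 0.03 for Psmb8 and -0.46 for Psmb10. Of 6 tested loading and folding genes 5 were below 0 (median -0.14), and Calr (calreticulin, the lectin chaperone of the loading complex) read 9.75, 10.18 and 10.40 in WT against 9.11, 8.30, 9.16 and 9.26 in KO. Its difference of -1.15 (SE 0.25) missed the threshold at an adjusted p of 0.0981.

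Nor did any regulator. Of 10 tested MHC transcription factors 8 were above 0 (median 0.21), 2 of them at an unadjusted p under 0.05, and 0 were called. Of all 13193 genes 7162 were above 0 (median 0.03), 8.25% were higher at that unadjusted p, and 7.62% had groups apart in the higher direction. Irf1, the interferon factor that binds class I and Ciita promoters, read 6.56, 6.48 and 6.57 in WT against 7.33, 7.22, 7.51 and 8.09 in KO, without overlap. The KO mean was 7.54 and the WT mean 6.54 (SE of the difference 0.21, limma adjusted p = 0.0878) on the brightest of 4 kept probes, whose differences ranged down to -0.07. Irf2, its antagonist, differed by 0.68 (SE 0.20, adjusted p = 0.17). Among 12 tested interferon gamma response genes 7 were above 0 (median 0.06). Igtp, an immunity GTPase, differed by 0.68 (SE 0.23) and Ifngr2, a receptor chain, by -0.76 (SE 0.22) with other probes up to 0.18.

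Class II processing genes split, with 6 of 9 above 0 (median 0.05) and 0 called. Ctss, the protease that trims Cd74 in antigen-presenting cells, differed by 0.58 (SE 0.25) and Ctsl by -0.59 (SE 0.26), both with overlapping groups. Among 4 tested MHC-related genes outside the complex, Fcgrt, the Fc receptor that recycles IgG and albumin, read 10.28 to 10.78 in KO and 10.81 to 11.13 in WT. The groups did not overlap, as in 5.48% of all genes in that direction, and the difference was -0.51 (SE 0.18, limma adjusted p = 0.21). The 4 tested co-stimulation genes had a median of 0.01 and Cd86 differed by 0.25 (SE 0.20).

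The 20 genes that could not be tested were H2-M1, H2-M10.2, H2-M10.3, H2-M10.4, H2-M10.6, H2-M11, H2-M2, H2-M5, H2-M9, H2-Q2, H2-T18, H2-T22, H2-T24 and H2-T3 of class I, Mr1, and H2-Ea, H2-Eb2, H2-Oa, H2-Ob and Ciita of class II. They were above the floor on 0 to 2 arrays, with highest values of 4.68 to 5.39 against a floor of 4.99. A level this low was not detectable above background, which does not show absence.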

How the data were processed

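Per the labels, biotin-labelled RNA of whole liver was put on Illumina bead arrays of 1 colour. The authors deposited a linear intensity for each probe, which they had normalized between arrays. Sorted values of the 7 arrays differed by at most 86.7 at any rank, with intensities up to 30878. The median was 91.1 on WT replicate 1. The submitters' processing notes name Partek, with no version in the sources used here. Scanner values in 14 columns, 7 of signal and 7 of detection p, were not used, since no label ties them to a sample, and slide could therefore not be tested as a batch.

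Intensities were background-corrected by normexp (saddle, offset 16) (limma 3.58.1, R 4.3.3) and then log2-transformed. An intensity of 93.6, or 4.99 after correction, served as the floor on all arrays. It was set from WT replicate 1: values below the most frequent intensity were mirrored to give a normal curve, and its 0.95 quantile was taken. Probes above it on at least 3 arrays were kept, 18776 of 45281, and the brightest kept probe stood for each gene. Of all probes 34885 had 1 symbol in the platform annotation, 18 several and 10378 none, and probes without 1 symbol were tested under their own identifiers. All 49 genes matched RefSeq by Entrez identifier. The genotypes were compared by limma's lmFit and eBayes, with no covariate and two-sided Benjamini-Hochberg adjusted p over 13193 genes or probes (threshold 0.05). The fit was tested on simulated data. There it called 8 of 67 genes changed 1.5-fold, 36 of 67 changed 2-fold and 62 of 66 changed 4-fold, with 4 unchanged genes called. Small changes can therefore be missed. Differences are KO minus WT on the log2 scale. The number of arrays limits the precision.

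The members and the gene and marker lists were chosen with earlier results of these data known. Named genes were all members, Ltbr, and up to 4 genes of smallest p of each pathway list, with Psmb9 added beside the other inducible subunits. Alternatives covered background correction, normalization, the floor, the choice of probe, the prior, array weights, the replicate number and left-out samples. Deviations of same-numbered samples correlated at -0.20, -0.04 and -0.30, so the numbers did not pair the samples.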

Additional observations from a re-analysis of the deposited data

How the results depend on the processing

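The count of genes past the threshold was 9 (1 higher) and depended on the settings. It was 4 without background correction (1 higher), 6 with an offset of 50, 9 with cyclic loess, 19 with no filter, 1 with the floor required on all arrays, 3 with the mean of kept probes, 1 with the first probe, 2 with a trend and robust prior, and 13 with a lower floor of 91.1, which was added after seeing the data. The replicate block gave 3 (0 higher) and leaving out 1 sample 2 to 5 (0 or 1 higher). Array weights gave 955 (517 higher), and leaving out both KO replicate 3 and WT replicate 3 gave 568 (339 higher). Most calls were lower in the main setting, but not with array weights or without both samples. Of the 6 with an offset of 50, 2 were higher. An adjusted p under 0.10 gave 81 and an unadjusted p under 0.05 gave 1948. The class I median stayed between -0.05 and 0.04 under the alternatives run. The class II median of 0.13 ran from -0.24 without WT replicate 3 to 0.49 without WT replicate 1, so its sign rests on those samples. The class I count at an unadjusted p under 0.05, 1 gene, was 0 with the mean of kept probes or the first probe, 2 with array weights, and 0 to 2 over left-out samples. The class II count, also 1, was 0 without background correction, with an offset of 50, with the trend and robust prior, with array weights, with the replicate block and without both samples, and 0 to 2 over left-out samples. Of 546 pairs of a member gene and an alternative, 60 had the other sign, in 20 genes, and 1 passed the threshold, Nlrc5 at 1.20 without both samples. H2-Q8 stayed below 0 under all of them, from -0.91 to -0.23. Outside the members, Ltbr, Irf1, Calr, Psme3, Ifngr2, Fcgrt, Marco, Cd163 and Prf1 passed with array weights, at adjusted p from 0.0137 to 0.042, and Ltbr, Irf1, Ifngr2, Marco, Siglech and Prf1 without both samples, at adjusted p from 0.00609 to 0.0487. The causes were not tested. Signal close to background limits the dim genes.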
